A study of Homo sapiens with 6 samples.

Results

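The CHD genes encode chromatin remodellers, and the 9 members CHD1 to CHD9 were taken by gene symbol from the 61552 genes listed for each library. All 9 were found once each, and all 9 passed the filter on low counts that left 15063 genes to test. RNA was sequenced from the established cell line NCI-H520, from a human squamous carcinoma of the lung, wild type per the labels and grown with 15% fetal bovine serum. The groups were 3 libraries of cells given cisplatin at 2 µM, a DNA-crosslinking platinum compound, and 3 libraries of cells given phosphate-buffered saline (PBS), both for 48 h. The comparison asks how the RNA levels of these cells differ after the drug, in a series whose title concerns the transcription factor SOX2 and drug resistance. The labels name 1 cell line and do not say that replicates were separate cultures, so the spread behind each p-value is that between libraries and may be technical.

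CHD proteins carry paired chromodomains, which bind histone tails, beside a motor of the SNF2 type that uses ATP to slide, space or exchange nucleosomes. Members fall into subfamily I (CHD1 and CHD2), subfamily II (CHD3, CHD4 and CHD5, the motors of the NuRD deacetylase complex) and subfamily III (CHD6 to CHD9). Several are known from the DNA damage response: CHD4 is recruited to damaged chromatin, CHD1 and CHD2 have been tied to repair of double-strand breaks, and CHD8 is known to restrain p53. CHD7 is known as a partner of SOX2 in neural stem cells.

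Under cisplatin, 6 of the 9 genes fell by the quasi-likelihood test of edgeR, with p-values adjusted over all tested genes (called under 0.05), and 0 rose. On these counts CHD7 had the largest fold change, to 0.548 of its PBS level, followed by CHD1 at 0.666, CHD9 at 0.741, CHD2 at 0.759, CHD6 at 0.848 and CHD8 at 0.860. The 3 NuRD motors CHD3, CHD4 and CHD5 did not pass. The calls of CHD6 and CHD8 were lost when most single libraries were left out, and on the deposited TPM values limma called 2 members, CHD2 and CHD1, which there had larger changes than CHD7. Over all tested genes 19.3% were called lower and 18.9% higher, 38.2% in all. Transcript length moved with these results: among the 5620 tested genes at least as long as CHD4, the shortest member by mean length at 2907 bases, 32.5% were called lower and 9.18% higher, and the part of length in the CHD changes was not tested beyond the length-adjusted values given below. The median log2 fold change was -0.24 over the 9 members, -0.17 over those long genes and -0.000347 over all tested genes. In bulk RNA, fewer cells with a transcript and less of it per cell cannot be told apart.

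**Figure D1:**
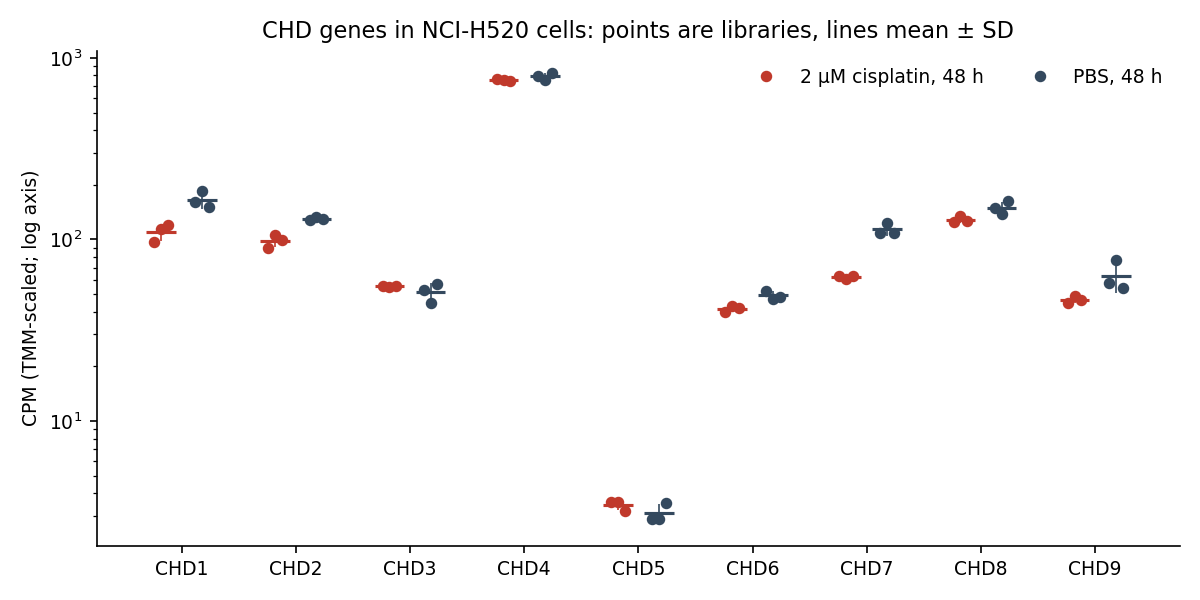
CPM (a gene's share of its library's counts after TMM scaling, log axis) of each CHD gene in the 3 cisplatin libraries, left, and the 3 PBS libraries, right. Points are libraries and lines the mean ± SD. All 3 cisplatin points lie below all 3 PBS points for CHD1, CHD2, CHD6, CHD7, CHD8 and CHD9.

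Expected counts totalled 9925328 to 16724285 per cisplatin library and 9121180 to 15589897 per PBS library, and the 9 members held 12881 to 21572 and 13468 to 22913 of them. Mitochondrially encoded genes took 3.26% to 4.13% of counts under cisplatin and 4.15% to 6.05% under PBS. Of 8 markers of squamous lung carcinoma, SOX2 stood at 152 TPM (a level per transcript length) on average under cisplatin and 156 TPM under PBS, PITX1 at 61.7 and 93.9 TPM, while TP63 and DSG3 stayed under 1 TPM in every library. TRIM29 had 15.7, 12.9 and 13.3 TPM under cisplatin, against 6.63, 5.7 and 5.09 TPM under PBS, and CDH3 had 11.3, 9.6 and 10.9 TPM under cisplatin, against 6.5, 7.07 and 7.06 TPM under PBS, both without overlap. For PITX1 the cisplatin libraries (63.8, 55.0 and 66.4 TPM) all lay below the PBS libraries (88.4, 87.7 and 105 TPM). In CPM, such a gap below PBS occurred in 24.5% of tested genes and one above PBS in 25.2%. In PBS replicate 1 the keratin KRT6A reached 36.3 TPM, against 0.95 to 1.47 TPM in the other 5 libraries. The 8 markers summed to 230 to 257 TPM under cisplatin and 255 to 305 TPM under PBS, and 4 epithelial markers to 1822 to 1854 and 1574 to 1837 TPM. Markers of leukocytes (3 genes) and endothelium (3 genes) summed to at most 0.06 and 0.4 TPM under cisplatin and 0.18 and 0.13 TPM under PBS; PTPRC was listed at 0 throughout and PECAM1 at 0 in every cisplatin library. The 3 fibroblast markers summed to 5.84 to 7.4 TPM under cisplatin and 4.07 to 6.12 TPM under PBS, nearly all of it COL1A1, and 3 lung adenocarcinoma markers to 3.71 to 4 and 1.8 to 2.88 TPM, nearly all of it NKX2-1.

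In level per length, CHD4 exceeded every other member, with 348, 344 and 321 TPM in the cisplatin libraries and 304, 295 and 311 TPM in the PBS libraries. It held 68.1% ± 2.15 of the summed TPM of the 9 under cisplatin and 62.7% ± 1.20 under PBS (SD, n = 3 each). Under cisplatin the order continued with CHD8 (41.8 TPM), CHD1 (30.8), CHD2 (22.2), CHD3 (19.4), CHD7 (18.9), CHD9 (16.7), CHD6 (8.14) and CHD5 (0.483). The libraries' ranges of CHD3 and CHD7 overlapped, as did those of CHD7 and CHD9, so those neighbours did not differ beyond their spread. Under PBS the order was CHD4, CHD1 (43.4 TPM), CHD8 (35.3), CHD2 (34.6), CHD7 (22.5), CHD9 (18.3), CHD3 (16.0), CHD6 (9.30) and CHD5 (0.483), and there CHD8 overlapped CHD2, CHD7 overlapped CHD9 and CHD9 overlapped CHD3. CHD1 and CHD8 thus stood in opposite order in the 2 groups on this scale, without overlap in either; the lengths that enter TPM differed between the groups for some members, as described below.

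CHD1 (ENSG00000153922; chromosome 5, 98853985 to 98928957, minus strand, in GRCh38) encodes the remodeller that reads trimethylated lysine 4 of histone H3 at active genes and spaces nucleosomes behind the polymerase. It had 96.9, 114 and 119.9 CPM (counts of the gene relative to its library's total after TMM scaling) in the cisplatin libraries, against 161, 186 and 151 CPM in the PBS libraries. The groups did not overlap, and CPM of all 3 cisplatin libraries lay below all 3 PBS libraries in 24.5% of tested genes, among them 6 members; all 3 lay above in 25.2%, among them 0 members. The log2 fold change was -0.59 ± 0.10 (SE; edgeR adjusted p = 0.000746). The fold change of 0.666 had a 95% interval from 0.574 to 0.772.

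CHD2 (ENSG00000173575; chromosome 15, 92900189 to 93028005, plus strand), a remodeller that helps to deposit a variant histone at active chromatin, had 90.2, 106 and 99.0 CPM under cisplatin, against 127, 134 and 129 CPM under PBS. Every cisplatin library was below every PBS library, and the log2 fold change was -0.40 ± 0.08 (SE; edgeR adjusted p = 0.00195). The non-coding gene CHASERR lies just upstream on the same strand (chromosome 15, 92882707 to 92899701), and its RNA is known to hold CHD2 expression down. CHASERR had 26.4, 27 and 30.5 CPM under cisplatin, against 29.3, 31.8 and 25.0 CPM under PBS, and the groups overlapped (log2 fold change -0.03 ± 0.11, edgeR adjusted p = 0.851). Over the alternatives its adjusted p ran between 0.0441 and 0.986, the lowest with a correction for transcript length (-0.25). A further annotated gene, ENSG00000279765, shares 10.2% of the exonic bases of CHD2 on the same strand, but it held 1.35 to 49.0 counts per library against 905 to 2032 of CHD2.

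CHD1 and CHD2 together gave 187, 221 and 219 CPM under cisplatin, against 289, 319.5 and 279 CPM under PBS. Both genes passed edgeR's test in the main setting and kept the direction and the call in all 18 alternative settings, the adjusted p reaching 0.0466 for CHD1 and 0.043 for CHD2.

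The 250 bases before the RefSeq start are shown for CHD1 and CHD9, which fell, and for CHD3, which did not pass; these windows hold no exon of the member itself in GENCODE 29. RefSeq windows on GRCh38.p14, matched by symbol, were used for 6 of the 9 members. None was used for CHD5, CHD6 or CHD7, which does not mean that RefSeq lists none for them. The CHD1 window is chr5:98929008-98929257 on the minus strand, of which 87 bases lie in exons of the non-coding gene LINC02062. The CHD9 window is chr16:53054741-53054990 on the plus strand, the one nearest the start of the gene's annotated span among 4 listed for it, and the CHD3 window is chr17:7888539-7888788 on the plus strand, within the annotated span of the gene. Capitals mark matches on either strand to GGGCGG (the SP box), CCAAT (the NF-Y box) or CACGTG (the E-box), and neighbouring matches may overlap.
CHD1: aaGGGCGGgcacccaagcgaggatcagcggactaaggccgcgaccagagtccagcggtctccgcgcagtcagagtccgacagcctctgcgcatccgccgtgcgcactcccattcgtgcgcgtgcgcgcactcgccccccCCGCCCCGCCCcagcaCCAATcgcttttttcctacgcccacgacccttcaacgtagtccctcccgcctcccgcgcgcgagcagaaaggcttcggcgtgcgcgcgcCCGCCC
CHD9: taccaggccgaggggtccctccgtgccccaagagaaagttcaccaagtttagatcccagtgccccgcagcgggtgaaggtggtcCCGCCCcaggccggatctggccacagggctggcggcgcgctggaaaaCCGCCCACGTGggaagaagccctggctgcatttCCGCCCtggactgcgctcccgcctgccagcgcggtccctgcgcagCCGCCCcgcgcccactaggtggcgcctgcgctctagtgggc
CHD3: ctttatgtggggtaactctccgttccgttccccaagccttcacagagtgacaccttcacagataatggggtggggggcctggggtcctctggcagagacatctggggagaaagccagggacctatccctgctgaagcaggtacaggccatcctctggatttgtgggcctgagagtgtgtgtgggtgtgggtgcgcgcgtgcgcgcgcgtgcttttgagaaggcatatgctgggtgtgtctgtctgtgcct
The CHD1 window held 4 SP boxes and 1 CCAAT box, the CHD9 window 4 SP boxes and 1 E-box, and the CHD3 window none of these. Among 35116 such windows, 42.6% held GGGCGG, 32.0% CCAAT and 6.34% CACGTG. None of the 3 windows matched CCGGAAG (the ETS site, in 8.52% of windows), TTTNGCGC (an E2F site, 1.51%), TGACGTCA (the CRE, 1.65%) or the p53 half-site consensus (5.57%). Of the windows not printed, that of CHD9 at chr16:53208201-53208450, with 147 bases in CHD9 exons, held 1 p53 half-site match. The CHD9 window at chr16:53207715-53207964, which also has no CHD9 exon, held 1 CCAAT box. That at chr16:53130762-53131011, with 91 bases in CHD9 exons, held 2 CCAAT boxes and 1 SP box. The window of CHD2, which fell, has 135 bases in CHD2 exons and held none of the motifs, with 54.8% GC and 0 CpG dinucleotides. That of CHD4, which did not pass, lies wholly in CHD4 exons, within the annotated span of the gene. It held 1 SP box and 1 ETS site, with 72.0% GC and 21 CpG dinucleotides. The window of CHD8 also lies within the gene's annotated span, with 33 bases in CHD8 exons, and held 1 SP box and 1 CCAAT box. GC content in the printed windows was 70.8% for CHD1, 70.4% for CHD9 and 58.8% for CHD3, with 36, 22 and 9 CpG dinucleotides. Over the same 35116 windows the medians were 58.0% and 11. These matches describe letters only.

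CHD4 (ENSG00000111642; chromosome 12, 6570082 to 6614524, minus strand), the main NuRD motor in many cell types, had 764.5, 759.7 and 741 CPM in the cisplatin libraries, against 792, 755 and 821 CPM in the PBS libraries. The groups overlapped, since PBS replicate 2 lay within the cisplatin range. The log2 fold change was -0.06 ± 0.07 (SE; edgeR adjusted p = 0.494), with an interval of the fold change from 0.861 to 1.06. A protein-coding gene annotated on the same strand, ENSG00000285238, covers 46.9% of the exonic bases of CHD4, and its counts varied from 382 to 415 under cisplatin and from 66.7 to 504 under PBS. With those counts added, CHD4 had 806, 794 and 766 CPM under cisplatin, against 799.8, 788 and 839 CPM under PBS, and the log2 fold change came to -0.04 (edgeR adjusted p = 0.702, with 0.308 to 0.737 over all its alternatives).

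CHD3 (ENSG00000170004; chromosome 17, 7884806 to 7912760, plus strand), an alternative NuRD motor, had 55.4, 54.5 and 55.3 CPM under cisplatin, against 52.8, 44.7 and 56.8 CPM under PBS, with overlap; its log2 fold change was 0.10 ± 0.09 (SE; edgeR adjusted p = 0.427). CHD5 (ENSG00000116254; chromosome 1, 6101793 to 6180123, minus strand), a motor known from neurons and testis and as a tumour suppressor, was close to the lower edge of measurement, with 36, 40 and 53 counts under cisplatin and 26, 44 and 51 counts under PBS. In CPM that was 3.59, 3.56 and 3.18 under cisplatin, against 2.90, 2.89 and 3.56 under PBS, and the interval of its fold change, 0.814 to 1.47, was the widest relative to its value among the 9. CHD3 stood at 0.0725, 0.0718 and 0.0746 of the CPM of CHD4 in the cisplatin libraries and at 0.0667, 0.0592 and 0.0692 in the PBS libraries, without overlap. That ratio was not tested, and neither gene passed in edgeR.

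CHD7 (ENSG00000171316; chromosome 8, 60678778 to 60868028, plus strand) binds enhancers and is mutated in CHARGE syndrome. It had 63.2, 60.9 and 62.8 CPM in the cisplatin libraries, against 109, 124 and 108 CPM in the PBS libraries. The gap between the groups was wide beside the spread within either. Its log2 fold change was -0.87 ± 0.08 (SE; edgeR adjusted p = 1.61e-05), with an interval of the fold change from 0.487 to 0.617.

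CHD9 (ENSG00000177200; chromosome 16, 53055033 to 53329150, plus strand), a coactivator of nuclear receptors, had 44.7, 48.5 and 46.7 CPM under cisplatin, against 57.8, 76.8 and 53.9 CPM under PBS. The groups did not overlap, and PBS replicate 2 was the highest library. The log2 fold change was -0.43 ± 0.12 (SE; edgeR adjusted p = 0.0129). Without PBS replicate 2 it was -0.25 (edgeR adjusted p = 0.0384), and without cisplatin replicate 1 the call was lost (-0.40, adjusted p = 0.0549). The lowest and highest adjusted p among its alternatives were 0.000176 and 0.598.

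CHD8 (ENSG00000100888; chromosome 14, 21385194 to 21456126, minus strand), a repressor of beta-catenin and p53 targets that is often mutated in autism, had 125, 134 and 126 CPM under cisplatin, against 149, 137 and 162 CPM under PBS. CHD6 (ENSG00000124177; chromosome 20, 41402101 to 41618494, minus strand), tied to the oxidative DNA damage response, had 39.9, 42.8 and 42.0 CPM under cisplatin, against 52.3, 46.9 and 48.3 CPM under PBS. Neither gene's groups overlapped, but the gaps were small and both calls lay near the threshold. On the log2 scale the difference was -0.22 ± 0.08 (SE) for CHD8 and -0.24 ± 0.08 (SE) for CHD6, with an edgeR adjusted p of 0.0448 and 0.0369 for these genes in turn. Both calls were lost when any library other than PBS replicate 2 was left out: the edgeR adjusted p was 0.0743 to 0.155 for CHD8 and 0.0572 to 0.142 for CHD6. Its extremes among the alternatives were 0.0164 and 0.483 for CHD8, and 0.0324 and 0.893 for CHD6.

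Subfamily III summed to 273, 286 and 277 CPM under cisplatin, against 367, 385 and 373 CPM under PBS. Subfamily II gave 823, 818 and 799.8 CPM under cisplatin, against 848, 803 and 882 CPM under PBS. The summed CPM of the 9 was 1301 ± 20.9 under cisplatin and 1515 ± 16.4 under PBS (SD, n = 3 each), and without CHD4 it was 546 ± 24.0 and 725 ± 22.9 CPM. On the TPM scale the sums of the 9 were 494, 512 and 483 under cisplatin, against 479.9, 480.0 and 489 under PBS, so the 2 scales gave different pictures of the family.

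The scales part because TPM divides by transcript length, and the deposited length of a gene is the mean over its transcripts weighted by their estimated abundance in that library. CHD8 had lengths of 3551, 3442 and 3467 bases in the cisplatin libraries, against 4525, 4746 and 5610 bases in the PBS libraries. CHD9 had 3157, 3049.6 and 3429 bases under cisplatin, against 3973, 4002 and 4209.8 bases under PBS. CHD3 and CHD4 were shorter in the same sense, with 3187 to 3314 and 2610.3 to 2650.2 bases under cisplatin, against 3661 to 4158 and 2972 to 3528 bases under PBS. In these 4 genes every cisplatin library was shorter than every PBS library, as in 10.4% of the 12873 tested genes whose length varied; in 8.03% every cisplatin library was longer, among them 0 members.

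**Figure D2:**
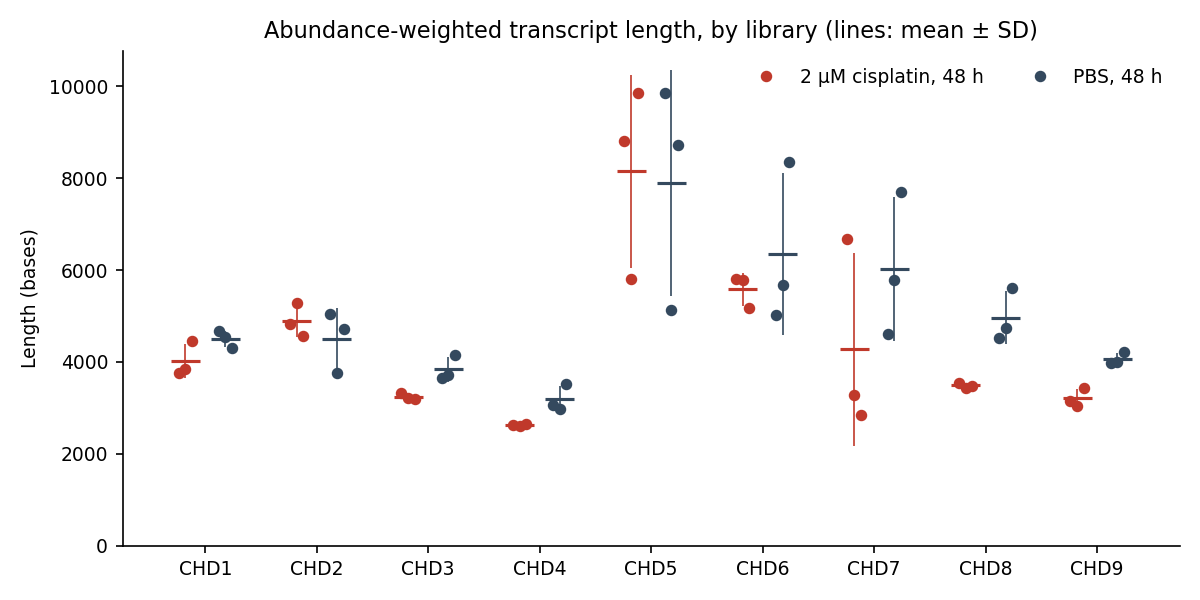
Deposited transcript length in bases (weighted by the estimated abundance of each gene's transcripts) in the cisplatin libraries, left, and the PBS libraries, right. Points are libraries and lines the mean ± SD. CHD3, CHD4, CHD8 and CHD9 have all cisplatin points below all PBS points, whereas CHD5, CHD6 and CHD7 scatter widely within a group.

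None of the 9 lengths passed limma's test with adjustment over those 12873 genes: the log2 difference was -0.50 ± 0.09 for CHD8 (SE; limma adjusted p = 0.206), -0.34 ± 0.05 for CHD9 (0.187), -0.24 ± 0.06 for CHD3 (0.271) and -0.27 ± 0.07 for CHD4 (0.31). The unadjusted limma p was 0.00239, 0.00147, 0.0079 and 0.0127 in the same order. Of all the genes, limma called 0 after adjustment, and 1455 had an unadjusted p under 0.05, 842 (6.54%) shorter and 613 longer under cisplatin; limma with trend and robust settings also called 0. The median log2 length difference was -0.24 over the members and -0.000101 over all the genes.

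For CHD7 the lengths were 6681, 3287 and 2853 bases under cisplatin, against 4600, 5783 and 7705 bases under PBS. Its TPM accordingly spread over 10.4, 21.2 and 25.0 under cisplatin, against 26.6, 23.3 and 17.7 under PBS, while its CPM within each group stayed close. CHD6 had one long value, 8345 bases in PBS replicate 3, beside 5166 to 5800 bases in the cisplatin libraries and 5027 and 5675 bases in the other PBS libraries. CHD2 had 4835, 5273 and 4575 bases under cisplatin, against 5034, 3763 and 4719 bases under PBS; the groups overlapped, and the log2 difference of 0.13 ± 0.13 (SE; limma adjusted p = 0.75) was 0.0036 without PBS replicate 2.

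All of these genes are annotated with many transcripts. The files list 24 for CHD8, of which GENCODE 29 names 13 protein-coding and 9 with a retained intron, and the transcript with its longest reading frame has 8471 bases. The files list 54 for CHD4, 22 of them protein-coding and 13 with a retained intron, and 6291 bases for the one with the longest reading frame. For CHD9 they list 21, with 11509 bases, and for CHD3 22, of which 17 were found in GENCODE 29, with 7356 bases. The deposited mean lengths of these 4 genes lay below those values in every library of both groups, and 11, 27, 12 and 12 of the annotated transcripts of CHD8, CHD4, CHD9 and CHD3 are under 2000 bases.

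The direction of CHD8 depended on the scale: on log2(TPM + 1) it was 0.24 higher under cisplatin (limma adjusted p = 0.169) with 40.7, 44.3 and 40.4 TPM, against 37.0, 31.9 and 37.1 TPM under PBS. When TPM was recomputed from the counts with 1 fixed length per gene, CHD8 stood at 50.3, 53.1 and 48.4 under cisplatin, against 59.6, 54.8 and 72.6 under PBS, with a log2 difference of -0.29 (limma adjusted p = 0.0999). CHD4 likewise was at 0.16 on the deposited TPM scale and -0.14 at fixed length, neither passing in limma (adjusted p = 0.308 and 0.357). CHD7 had -0.31 on deposited TPM (limma adjusted p = 0.491) and -0.91 at fixed length (0.000444), with an adjusted p from 2.57e-18 to 0.533 over all its alternatives. On deposited TPM limma called 2 of the 9 genes, CHD1 (-0.48, adjusted p = 0.0304) and CHD2 (-0.61, 0.0274), and at fixed length it called 4, all lower. Over all tested genes limma called 10.5% lower on deposited TPM (1587 lower and 1055 higher) and 18.7% lower at fixed length (2810 lower and 1842 higher), with a median log2 difference of -0.07 over all genes on both scales. Recomputation at fixed length was chosen after the length differences had been seen.

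**Figure D3:**
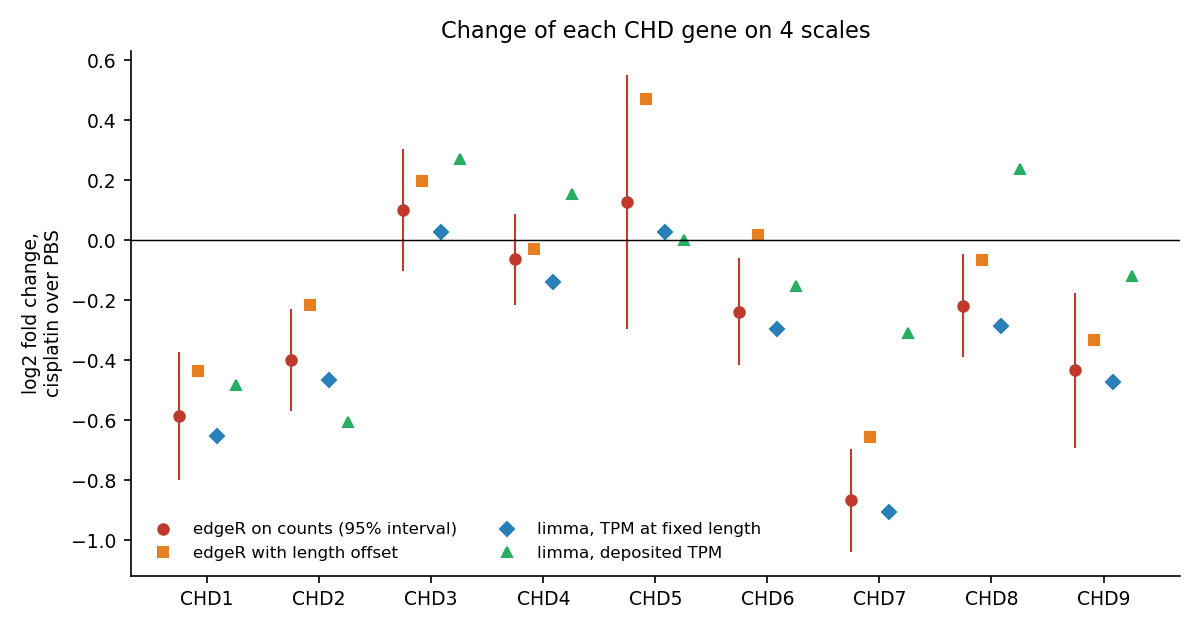
Log2 fold change of each CHD gene, cisplatin over PBS, on 4 scales: edgeR on counts with its 95% interval, edgeR with an offset for transcript length, limma on TPM recomputed at fixed length, and limma on the deposited TPM. CHD1, CHD2, CHD7 and CHD9 lie below 0 on all 4, whereas CHD8 lies above 0 on the deposited TPM and CHD6 at 0.02 with the length offset.

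Longer transcripts had lower fold changes throughout the data: the slope over all tested genes was -0.15 log2 units per doubling of length, and the median log2 fold change was 0.20 in the shortest and -0.24 in the longest of 5 equal groups of genes by length, the longest starting at 3961 bases. The mean lengths of the members ran from 2907 bases for CHD4 to 8026 bases for CHD5. With an offset that removes this trend, edgeR called 4 of the 9 lower and 0 higher, beside 16.8% of all tested genes lower (2532 lower and 2577 higher). CHD7 was then at -0.65 (adjusted p = 6.07e-05), CHD1 at -0.44 (0.0048), CHD9 at -0.33 (0.0486) and CHD2 at -0.22 (0.0362). CHD8 was at -0.07 (adjusted p = 0.483) and CHD6 at 0.02 (0.893), and CHD3 and CHD5, at 0.20 and 0.47, did not pass in edgeR (0.0981 and 0.0782).

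**Figure D4:**
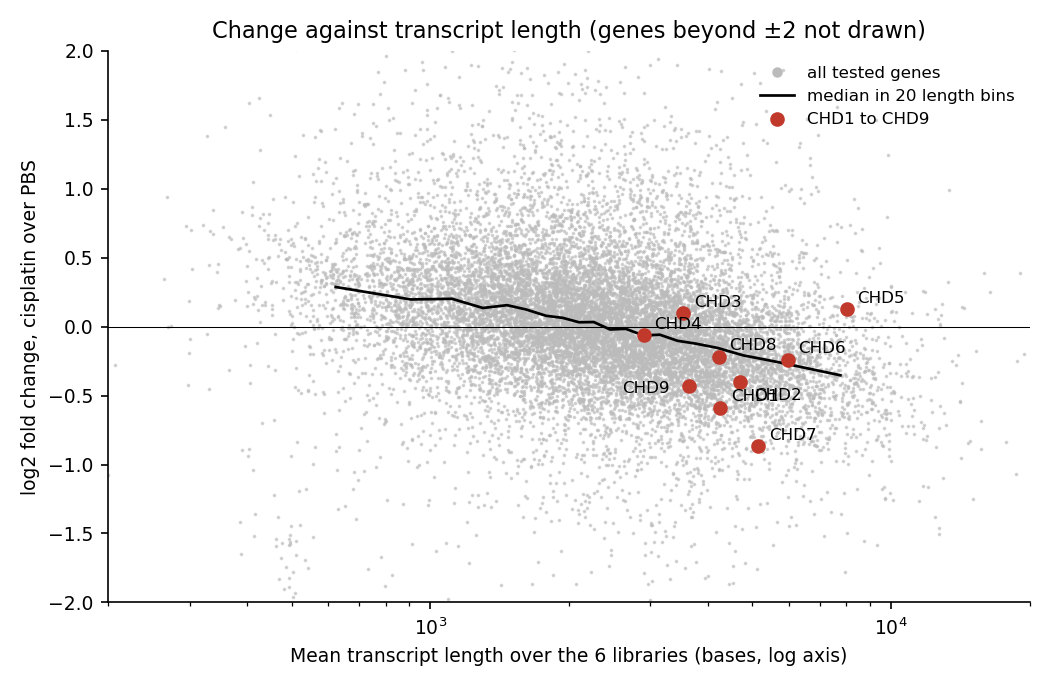
Log2 fold change, cisplatin over PBS, of each tested gene (grey) against its mean transcript length on a log axis, with the running median in black and the 9 CHD genes in red. CHD7 (-0.87), CHD1 (-0.59), CHD9 (-0.43) and CHD2 (-0.40) lie below the running median, CHD8 and CHD6 close to it, and CHD3 and CHD5 above it.

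The other subunits of NuRD were split, with 5 of 12 lower, 2 higher and 5 not passing (median log2 fold change -0.20). Beside this and each list below stand the shares over all tested genes, 19.3% called lower and 18.9% higher. The zinc-finger subunits GATAD2A and GATAD2B, which bridge the deacetylase and remodelling modules, fell by 0.49 and 0.50 on the log2 scale (edgeR adjusted p = 0.00221 and 0.000394), GATAD2B to 62.8 ± 2.28 CPM under cisplatin, against 88.7 ± 3.86 CPM under PBS (SD, n = 3 each). The histone chaperone RBBP4 fell to 180.2 ± 7.54 CPM, against 233 ± 11.6 CPM under PBS (edgeR adjusted p = 0.00186). The deacetylase HDAC1 rose to 154 ± 3.51 CPM, against 127 ± 6.40 CPM under PBS (edgeR adjusted p = 0.00908), and the scaffold MTA3 to 53.5 ± 5.75 CPM, against 40.04 ± 4.11 CPM (0.00702). On log2(TPM + 1) limma called 2 of the 12, both lower, and on TPM at fixed length 4, all lower. Over all tested genes limma called 10.5% and 18.7% lower on these scales in turn. On log2(TPM + 1) the calls of MTA3 (0.47, limma adjusted p = 0.0727), RBBP4 (-0.49, 0.0719) and GATAD2A (-0.68, 0.0575) were lost with log2 differences no smaller than in edgeR, and that of HDAC1 with a smaller one (0.15, 0.408). With the length offset edgeR called 10 of the 12, 8 lower and 2 higher, beside 16.8% of all tested genes lower.

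Of 13 factors that bind or recruit CHD proteins, 7 were lower, 0 higher and 6 did not pass (median -0.25). Over all tested genes 19.3% were called lower and 18.9% higher, and among those at least as long as CHD4 32.5% and 9.18%. The insulator protein CTCF, a partner of CHD8, fell to 60.3 ± 1.46 CPM under cisplatin, against 100.2 ± 1.14 CPM under PBS (log2 fold change -0.73 ± 0.07, edgeR adjusted p = 2.4e-05). ADNP, which forms the ChAHP complex with CHD4, fell to 87.6 ± 8.01 CPM, against 143 ± 10.3 CPM under PBS (edgeR adjusted p = 9.83e-05). SSRP1, a subunit of the histone chaperone FACT that works with CHD1, fell to 372 ± 8.0 CPM, against 523 ± 23.5 CPM (0.000258). For SOX2 itself the log2 fold change was 0.06 (edgeR adjusted p = 0.583). Limma called 3 of these 13 on log2(TPM + 1), all lower, beside 10.5% of all tested genes lower. With the length offset edgeR called 5 lower and 0 higher, beside 16.8% of all tested genes lower.

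Other motors of the SNF2 family, outside the CHD and SWI/SNF genes, were lower in 9 of 21 cases and higher in 2, with 10 not passing (median -0.16). With the length offset edgeR called 5 of these lower and 2 higher, beside 16.8% of all tested genes lower. SRCAP, which places the histone variant H2A.Z, fell to 58.9 ± 5.82 CPM, against 139.7 ± 39.3 CPM under PBS (log2 fold change -1.25 ± 0.16, edgeR adjusted p = 0.000162). The ubiquitin ligase SHPRH fell by 0.81 and EP400, the motor of the TIP60 complex, by 0.62 (0.000316 and 0.000535 in edgeR). The ISWI motor SMARCA1 rose to 37.6 ± 4.79 CPM, against 23.4 ± 1.04 CPM under PBS (edgeR adjusted p = 0.000439). RAD54B, a recombination factor, rose by 0.26 (edgeR adjusted p = 0.0388), a call lost in 9 of 18 alternatives (0.0275 to 0.355). CHD1L, a relative of the family that binds poly(ADP-ribose) at damaged DNA, had 61.2, 57.5 and 61.2 CPM under cisplatin, against 56.8, 53.5 and 59.0 CPM under PBS, and did not pass (0.09 ± 0.08, edgeR adjusted p = 0.394).

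Among 9 subunits of ISWI complexes 8 were tested, of which 3 were lower, 1 higher and 4 did not pass (median -0.21). BAZ1B fell by 0.50, the nucleosome remodelling subunit BPTF by 0.40 and BAZ1A by 0.31 (edgeR adjusted p = 0.000167, 0.00206 and 0.00555), whereas BAZ2B rose by 0.32 (0.0338), a call lost in 7 of 18 alternatives (0.00442 to 0.713). The INO80, SRCAP and TIP60 subunits gave 8 lower, 3 higher and 17 not passing of 28 (median -0.07). TRRAP, a scaffold of acetyltransferase complexes, fell by 0.64, INO80D by 0.74 and the actin-related ACTL6A by 0.33 (edgeR adjusted p = 0.000532, 0.000749 and 0.00843). The bromodomain protein BRD8 rose by 0.55, ZNHIT1 by 0.52 and DMAP1 by 0.22 (0.000259, 0.00323 and 0.0241), and DMAP1 lost its call in 7 of 18 alternatives (0.0151 to 0.422). The INO80, SRCAP and TIP60 list gave 4 lower and 2 higher without cisplatin replicate 1, 5 and 2 without cisplatin replicate 3, and 6 lower and 5 higher without PBS replicate 2. The ISWI subunits gave 4 lower and 2 higher without PBS replicate 2, and 3 lower and 0 higher without any 1 of cisplatin replicates 2 and 3 and PBS replicates 1 and 3. With the length offset, edgeR no longer called BAZ1A (adjusted p = 0.329), TRRAP (0.111) and INO80D (0.0561). On log2(TPM + 1) limma called 2 lower and 0 higher among the ISWI subunits and 2 lower and 1 higher among the INO80, SRCAP and TIP60 subunits; with a pseudocount of 0.1 it called 2 lower among the ISWI subunits and 0 in either direction among the others.

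**Figure D5:**
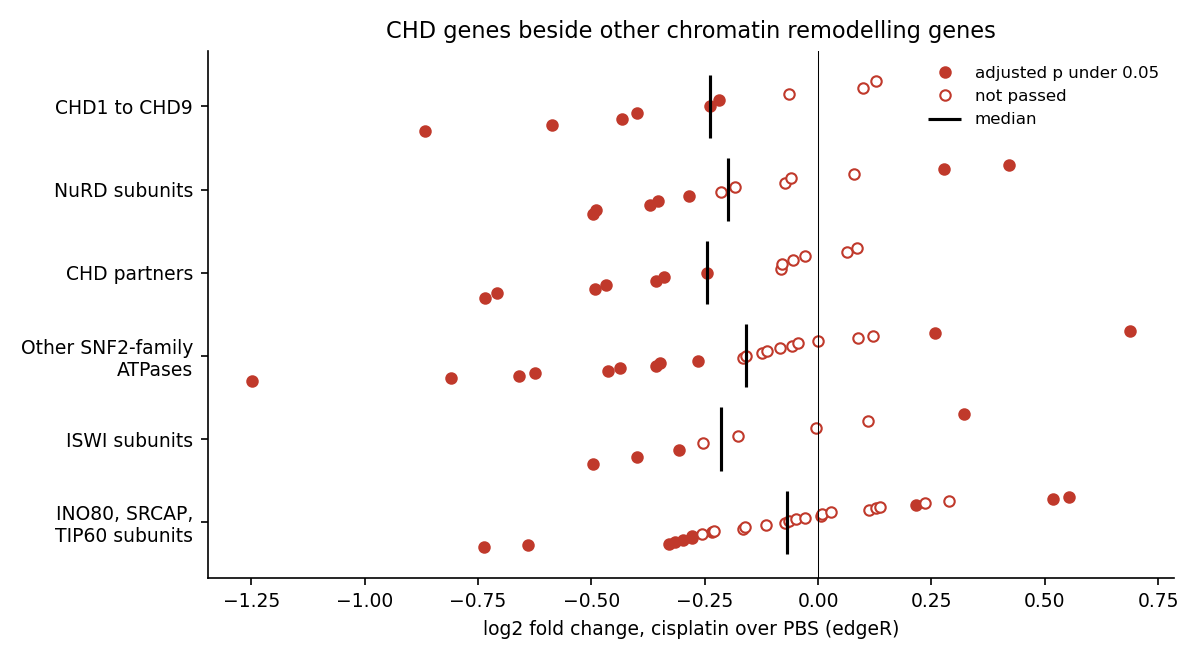
Log2 fold change, cisplatin over PBS (edgeR), of the CHD genes and of 5 lists of other chromatin remodelling genes. Filled points passed an adjusted p of 0.05, open points did not, and black bars are medians, from -0.25 for the CHD partners to -0.07 for the INO80, SRCAP and TIP60 subunits, with -0.24 for the CHD genes.

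Likeness of pattern was measured as the root mean square difference of log2 CPM over the 6 libraries, each gene centred on its own mean, among 9235 other protein-coding genes of at least 10 CPM. The 3 genes most like CHD4, the member with the highest TPM, were SORD, a sorbitol dehydrogenase (0.00864), COPB2, of the vesicle coat (0.0152), and DCTN4, of the dynactin complex (0.0158). The 3 most like CHD7, the member with the largest change in edgeR on counts, were the microRNA-processing enzyme DICER1 (0.0203), the transcription factor ELK4 (0.0351) and the matrix protein FREM2 (0.050), with log2 fold changes of -0.86, -0.93 and -0.89. The measure takes in the difference between the groups, so fold changes near that of CHD7 follow from the selection.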

How the data were processed

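Total RNA of NCI-H520 cells was taken with TRIzol and sequenced as 3 cisplatin and 3 PBS libraries, 1 table each, per the labels. The authors deposited expected counts per gene (estimated by the quantifier, not normalized), TPM values and transcript lengths, per the file headers, whose columns are those of an RSEM table. STAR 2.7.9 and the GRCh38 (hg38) genome are named per the submitters' processing notes; no source used here gives the quantifier's version, the annotation release or the use of strand, so reads of overlapping genes on opposite strands cannot be told apart.

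Symbols were matched for 61399 of 61552 genes, and positions came from GENCODE 29, on the same build (58352 genes). Expected counts were rounded to whole numbers. The test was that of edgeR 4.0.16 (R 4.3.3), with filterByExpr (count minimum 10, total 15), TMM scaling, quasi-likelihood test on the group alone, Benjamini-Hochberg adjustment over 15063 genes, called under 0.05. SE is the log2 fold change over the square root of F, and CPM uses TMM-adjusted library sizes. Log2 transcript lengths were tested with limma 3.58.1. The code was tested on simulated data.

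The members and the 5 lists were chosen with earlier results of these data known. Genes named from a list are up to 3 called in each direction with the smallest adjusted p. Alternatives were 3 scalings, 2 count filters, DESeq2 1.42.0, a replicate block, limma on log2 TPM with pseudocounts of 1 and 0.1, limma-voom, a lowess length offset, and leaving out each library; TPM at fixed length and the CHD4 sum were added after seeing the data. Replicate libraries differed by more than counting noise (chi-square per degree of freedom 2.93 to 20.9) and none held the same counts as another.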

Additional observations from a re-analysis of the deposited data

How the results depend on the processing

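Of the 6 CHD genes called lower, limma on TPM called 2 with a pseudocount of 1 and 2 with 0.1, and leaving out 1 library gave 3 to 6, the 3 without cisplatin replicate 1; in the other settings the count was 4 to 6, and no setting called a member higher. Over all genes, 5752 were called in the main setting, 2642 and 2185 by limma on TPM with those pseudocounts, and 4205 to 5283 with 1 library left out. CHD8 was higher on TPM (0.24 with either pseudocount) and CHD6 was at 0.018 with the length offset; the lengths that differ between groups enter TPM by its construction, and otherwise the cause was not tested. For transcript length, 0 genes were called by limma in the main setting and 0 to 7 with 1 library left out, the 7 without PBS replicate 2. With the replicate number as a block, 5 CHD genes, 5819 genes and 0 lengths were called, CHD8 being the lost member (adjusted p = 0.0588); same-numbered libraries correlated at 0.0658, 0.123 and -0.0760 in their deviations from the group means, so the numbers were not taken to pair them. Depth limits CHD5 most, at 26 to 53 counts per library.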
